A study of Mus musculus with 13 samples.

Results

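The Bcl2 family decides at the outer mitochondrial membrane whether a cell enters apoptosis, and 10 of its genes were examined here in enriched Sertoli cells. They were 4 guardians (*Bcl2l2*, *Bcl2*, *Bcl2l1*, *Mcl1*), 2 effectors (*Bax*, *Bak1*) and 4 BH3-only members (*Bad*, *Bid*, *Bbc3*, *Bcl2l11*), taken by exact symbol from the 27111 features of the count table that have a gene name. The set was chosen by a readout, because the feature labelled *Bcl2l2* had one of the smallest p-values among the genes higher after stress. Its change is therefore given as a description without a test. The other 9 were named for their place in the family, but with earlier results of these data known, so their p-values are not those of a blind choice. All 10 were among the 14421 genes that passed the count filter.

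Sertoli cells, the somatic cells that nurse germ cells in the seminiferous tubule, were sorted from testes of adult wild-type C57Bl/6J males, labelled Bl6 wt. The sort kept diploid, large cells with a strong MitoTracker signal and used no cell-type marker or transgene. Each library was made from 5 ng of total RNA. The 6 control males had no separation. The 7 MSUS males had lived through a daily absence of the dam in their first weeks (postnatal days 1 to 14). It lasted 3 h and came without a fixed schedule. In that interval each dam was stressed as well, by forced swimming for 5 min at 18 °C or by 20 min in a restraining tube. MSUS is the study's short name for maternal separation that comes unpredictably and is paired with stress of the mother. The comparison asks whether a stress of early life leaves a trace in the transcripts of adult Sertoli cells. The cage and litter of each male were not analysed here, so p-values measure only the spread between these samples.

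Guardian proteins hold effectors and BH3-only proteins in check. When BH3-only proteins are freed or made, they occupy the guardians or engage Bax and Bak directly, and the effectors then form pores that release cytochrome c and start the caspase cascade. *Bcl2l2* encodes Bcl-w, and male mice without it are sterile and lose germ cells and Sertoli cells as adults. Much of the regulation of the family is on protein stability, phosphorylation and binding, which RNA levels do not show.

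What joins the members is the BH3 core, a short helix that takes part in binding between members. Its coding sequence is printed here because members of all 3 roles share it. A script searched the longest coding sequence of each gene (GENCODE vM21, GRCm38) for codons of leucine or methionine, 3 residues of any kind, glycine, alanine or serine, aspartate, then aspartate, glutamate or glycine, and a final hydrophobic residue. This pattern was written after the members had been read, and methionine was allowed because of *Bcl2l2*. Each member had 1 match, against 3.19% of 21814 genes with a coding sequence. The 24 bases run 5′ to 3′ on the coding strand, and the capitals mark the first codon and the codon of the aspartate.
Bcl2l2, chr14:54884517-54884540, plus strand: ATGcgggctgctggaGACgagttt
Bcl2, chr1:106712578-106712601, minus strand: CTCcgccgggctgggGATgacttc
Bcl2l1, chr2:152829700-152829723, minus strand: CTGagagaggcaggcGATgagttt
Mcl1, chr3:95659436-95659459, plus strand: CTGcggcgcgtgggcGACggcgtg
Bax, chr7:45466000-45466023, minus strand: CTCcggcgaattggaGATgaactg
Bak1, chr17:27022534-27022557, minus strand: CTTgctctcatcggaGATgatatt
Bad, chr19:6950792-6950815, plus strand: CTCcgaaggatgagcGATgagttt
Bid, chr6:120897292-120897315, minus strand: CTCgcccaaataggcGATgagatg
Bbc3, chr7:16313773-16313796, plus strand: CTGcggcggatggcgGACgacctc
Bcl2l11, chr2:128147150-128147173, plus strand: CTGcggcggatcggaGACgagttc
In this alignment *Bcl2l2* alone begins with a methionine codon, and *Mcl1* alone has a glycine codon after the aspartate.

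The count table holds 2 rows with the *Bcl2l2* symbol, named Bcl2l2 and Bcl2l2.1, and this bears on every value given for the gene. No other member has a second row. The gene rows follow the order of Ensembl identifiers, with 22864 of 22921 rows of unique symbol in ascending order. The other 9 members sit at the place of their own identifier. The row named Bcl2l2 is 1 of 57 exceptions. It lies between *Psmb5* and *Pdzd2*, where the annotation has *Pabpn1*, a nuclear poly(A)-binding protein gene, and 6030458C11Rik. The row Bcl2l2.1 lies between *Gm16299* and *Rab42*, an interval of 6 annotated identifiers that includes that of *Bcl2l2*. The table has 0 rows named *Pabpn1*. By this order, the row Bcl2l2.1, and not the row Bcl2l2, is the one whose place includes the *Bcl2l2* identifier. The values of the row Bcl2l2 may therefore be those of *Pabpn1*, a gene outside the Bcl2 family. Beyond this order, which transcripts each row counts was not settled, so both rows were analysed. The values of the row Bcl2l2 are those of the row as labelled.

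The annotation at this locus shows how reads can be shared. *Bcl2l2* lies at chr14:54883377-54888234 and *Pabpn1* at chr14:54892500-54898169, both on the plus strand (GENCODE vM21, GRCm38). A read-through gene, *Gm20521*, spans both (chr14:54883441-54898137) and splices a coding exon of *Bcl2l2* at position 54884813 to a coding exon of *Pabpn1* at position 54894848. The bases around that junction are shown because a read across it belongs to neither gene alone, with the *Bcl2l2* exon in lower case and the *Pabpn1* exon in capitals.
Gm20521 junction, plus strand: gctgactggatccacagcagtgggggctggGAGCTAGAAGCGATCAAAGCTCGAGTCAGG
Of all 100-base windows in *Bcl2l2* transcripts, 10.9% also occur in *Gm20521*, as do 16.3% of those in *Pabpn1* transcripts. *Bcl2l2* and *Pabpn1* shared 0 such windows with each other. In the table, the estimated counts of the rows Bcl2l2, Bcl2l2.1 and 1 row without a gene name add up to a whole number, within 0.006, in 12 of 13 samples. The next best row without a name does so in 2. Some reads were therefore divided among the 3 rows. How many were divided, and between which of the rows, is not known, and the rest of the counts may belong to 1 row alone.

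Total estimated counts ranged from 12701776 to 18649945 per sample. The 6 Sertoli markers held a summed level of 13.58 to 13.89 log2 CPM in controls and 13.60 to 13.85 in MSUS samples, so the labelled cell type was present in each group at about the same level. CPM are counts scaled to a common library size (counts per 1000000) after trimmed mean of M-values (TMM) normalization, with a prior count of 2. RNA of other testis cells was also present. Markers of spermatogonia summed to 7.75 to 8.05 log2 CPM in controls and 7.69 to 8.09 in MSUS samples. Those of spermatocytes summed to 7.52 to 7.89 and 7.02 to 8.15, and those of round spermatids to 5.74 to 6.18 and 5.83 to 7.05. Leydig cell markers summed to 4.91 to 6.06 and 5.32 to 6.38. The 4 markers of elongated spermatids summed to 9.73 to 10.43 log2 CPM in controls and 9.51 to 10.79 in MSUS samples, and the 4 of peritubular myoid cells to 2.91 to 5.90 and 3.39 to 6.44. The 4 endothelial markers, 1 of which had an unadjusted p under 0.05 (limma), summed to 5.69 to 6.08 and 5.73 to 6.18, with a mean level of 3.09 ± 0.18 in controls and 3.34 ± 0.14 in MSUS samples. No marker in the lists examined was at 0 in all samples, and the part of these cells in the differences between groups was not tested. In bulk RNA, fewer cells of a type and less RNA per cell cannot be told apart.

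Per kilobase of transcript, guardians were the most abundant members of the family, and one guardian was the least. Levels between genes were compared as log2 CPM per kb of the longest coding transcript, over all 13 samples. The row Bcl2l2 was highest at 6.10 ± 0.24 (SD, n = 13) and *Mcl1*, a short-lived guardian, second at 5.37 ± 0.14. *Bcl2l1*, which encodes Bcl-xL, followed at 3.99 ± 0.13. *Bcl2* itself, the founding member, was last at -0.50 ± 0.43. As linear shares of the summed CPM per kb of the 10 members, the row Bcl2l2 made up 40.3% ± 4.8, *Mcl1* 24.3% ± 2.62 and *Bcl2l1* 9.30% ± 0.99 (SD over 13 samples), while *Bcl2* made up 0.40% ± 0.13. These shares hold for the row as labelled, divided by the length of a *Bcl2l2* transcript. With the row Bcl2l2.1 in its place, at 5.13 ± 0.13 log2 CPM per kb, *Mcl1* was first, and the shares were not computed. *Bcl2* transcripts were counted 32 to 104 times per sample, and those of the row Bcl2l2 1909 to 3823 times.

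The pro-apoptotic members lay between these. *Bad*, a BH3-only member controlled by survival kinases, had 3.75 ± 0.21 log2 CPM per kb, and *Bax* had 3.57 ± 0.29. *Bcl2l11*, which encodes Bim, had 2.83 ± 0.23, and *Bak1* had 2.62 ± 0.22. *Bid*, which links death receptors to mitochondria after cleavage by caspase-8, had 1.78 ± 0.31. *Bbc3*, which encodes Puma, a target of p53, had 0.98 ± 0.38. Between the effectors, *Bax* stood above *Bak1* by this measure.

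**Figure D1:**
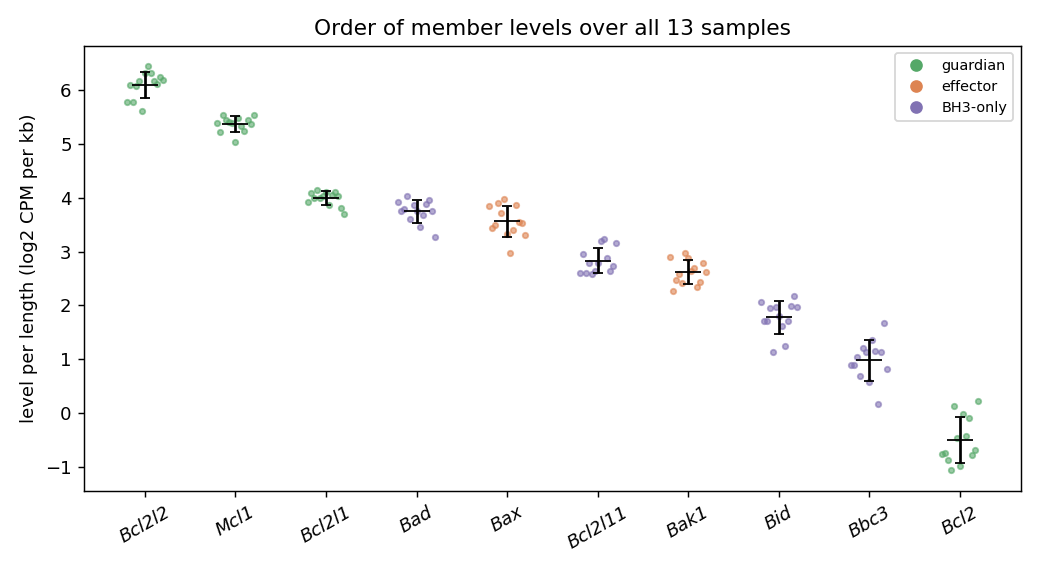
Level of each member in log2 CPM per kb of its longest coding transcript (y axis), in order of the mean. Each point is 1 of 13 samples, black bars are the mean and SD, and colours give the role. The row Bcl2l2 and *Mcl1* are at the top at means of 6.10 and 5.37, and *Bcl2* is at the bottom at -0.50.

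Neighbours in this order were compared within samples with an exact sign-flip permutation test, two-sided, adjusted over the 9 pairs. All 9 differed over the 13 samples. The closest were *Bcl2l11* and *Bak1*, with a mean difference of 0.21 ± 0.34 log2 units (adjusted p = 0.0432, *Bcl2l11* higher in 9 of 13 samples), and *Bad* and *Bax*, with 0.18 ± 0.21 (exact permutation test, adjusted p = 0.0118, *Bad* higher in 10 of 13). These steps were not firm. Within controls alone, *Bad* and *Bax* differed by 0.10 ± 0.19 (exact permutation test, adjusted p = 0.316), *Bcl2l11* and *Bak1* by 0.09 ± 0.37 (adjusted p = 0.594), and *Bid* and *Bbc3* by 0.79 ± 0.47 (adjusted p = 0.0804). Within MSUS samples alone, the steps from *Bad* to *Bax* (adjusted p = 0.0603), from *Bax* to *Bcl2l11* and from *Bcl2l11* to *Bak1* (exact permutation tests, adjusted p = 0.0625 for both) did not pass either. The smallest unadjusted p this permutation test can give is 0.0312 for 6 controls and 0.0156 for 7 MSUS samples. Within controls, only a pair with the same sign in all 6 samples could therefore pass, and a step that did not pass was not shown to be absent.

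With the length of all exons of a gene in place of the longest coding transcript, *Bax* stood above *Bad* by 0.04 ± 0.21 (exact permutation test, adjusted p = 0.524) and *Bak1* above *Bcl2l11* by 0.45 ± 0.34 (adjusted p = 0.000732). The first place depended on the row. With the row Bcl2l2.1 divided by the same length, 5.13 ± 0.13 log2 CPM per kb, *Mcl1* was first, by 0.24 ± 0.15. In both readings the guardians *Mcl1* and *Bcl2l2* held the top places and *Bcl2* the last. Without any division by length, in log2 CPM, *Bcl2* stood above *Bbc3* by 0.51 ± 0.56 (exact permutation test, adjusted p = 0.00403, in 12 of 13 samples). *Bcl2l11* then stood above *Bad* by 0.80 ± 0.40 (exact permutation test, adjusted p = 0.000439). *Bak1* stood above *Bax* by 0.17 ± 0.35, which did not pass (exact permutation test, adjusted p = 0.115, in 8 of 13).

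Between the groups, the row Bcl2l2 had the largest positive difference of the members as labelled, and it is the row by which the set was chosen. *Bcl2l11* came next at a log2 fold change of 0.25. The row Bcl2l2.1, whose place includes the *Bcl2l2* identifier, was at 0.02, so a rise of *Bcl2l2* transcripts cannot be read from these values. In log2 CPM, the row Bcl2l2 had a lowest value of 7.54, a median of 7.86 and a highest of 8.10 in controls, and 8.05, 8.17 and 8.38 in MSUS samples. The groups overlapped: 6 of 7 MSUS samples were above every control, and 5 of 6 controls were below every MSUS sample. The log2 fold change was 0.34 (SE 0.09), a 1.27-fold difference. By p-value, the measure that chose it, it had rank 3 among all genes tested and rank 2 among those higher in MSUS.

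The row Bcl2l2.1 showed no such difference. Its lowest, median and highest values were 6.86, 7.07 and 7.23 log2 CPM in controls and 6.89, 7.09 and 7.29 in MSUS samples. The groups covered nearly the same range. The log2 fold change was 0.02 (SE 0.07), with a 95% confidence interval from -0.13 to 0.17 (limma p = 0.761, exact permutation test p = 0.752). The sum of the 3 rows among which reads were divided differed by 0.23 on the log2 scale.

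The ratio of estimated counts of the row Bcl2l2 to the row Bcl2l2.1 was 1.76 ± 0.31 (SD, n = 6) in controls, from 1.33 to 2.21. In MSUS samples it was 2.19 ± 0.26 (SD, n = 7), from 1.80 to 2.52. The ranges overlapped. As this ratio contains the value that chose the gene, it was not tested. The row without a name held 3.39% to 5.68% of the summed counts of the 3 rows in controls and 2.27% to 5.42% in MSUS samples.

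**Figure D2:**
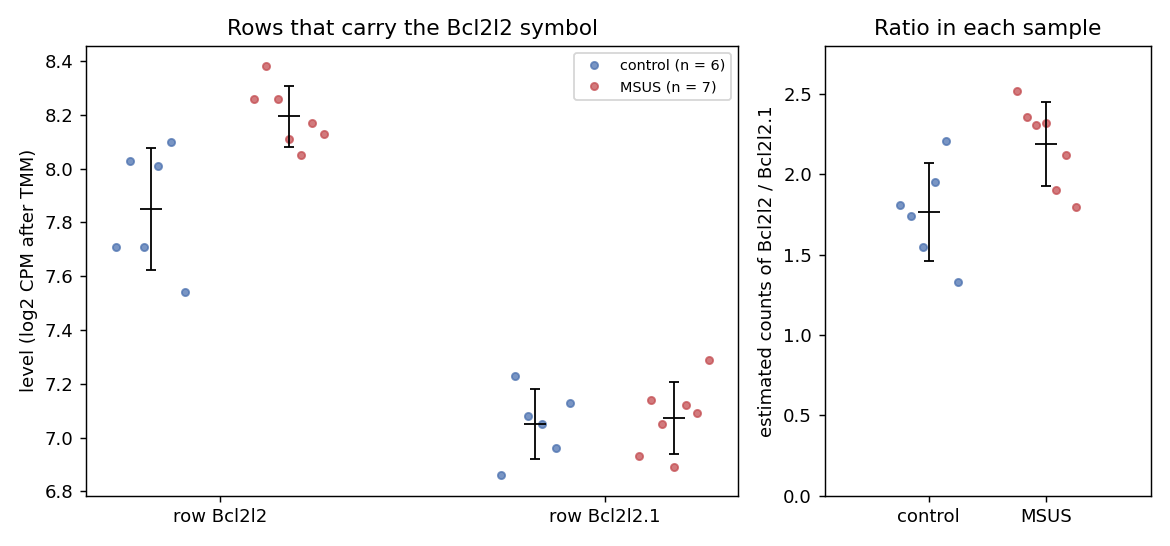
Left, level (log2 CPM) of the rows Bcl2l2 and Bcl2l2.1 in 6 control (blue) and 7 MSUS (red) samples, on an axis that does not start at 0; right, ratio of their estimated counts in each sample. Points are samples and black bars the mean and SD. The row Bcl2l2 is shifted upwards in MSUS samples, from a mean of 7.85 to 8.20, and the row Bcl2l2.1 is not, at 7.05 and 7.07.

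Of the 9 members not chosen by their p-value, *Bcl2l11* alone passed the study's threshold of an unadjusted p under 0.05 (limma), which 5.42% of all genes tested passed. It was higher in MSUS, as were 3.02% of all genes, with 2.40% called lower. After adjustment over all genes, 0 of the 9 were called by limma, by edgeR's quasi-likelihood test or by DESeq2, as were 0 of all genes tested (0%). At an unadjusted p under 0.05 these tools called 1, 2 and 1 of the 9 and 781, 793 and 835 genes in all. Over all genes the calls split into 435 higher and 346 lower, but into 325 and 469 when scaled by library size alone and 379 and 444 by the upper quartile, while *Bcl2l11* was higher under each. The median log2 fold change of the 10 members was 0.01, beside -0.0018 for all genes tested, with 5 members positive and 5 negative.

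Among the other guardians, none was called. *Bcl2* had a lowest value of 1.78, a median of 2.1 and a highest of 2.97 log2 CPM in controls, and 1.86, 2.42 and 3.07 in MSUS samples. The groups overlapped over almost their whole range. The log2 fold change was 0.23, but at this depth its interval ran from -0.27 to 0.73 (limma p = 0.350, exact permutation test p = 0.353). *Bcl2l1* had the smallest within-group SD of the family, at 5.29, 5.38 and 5.5 log2 CPM (lowest, median, highest) in controls and 5.07, 5.39 and 5.47 in MSUS samples. Its log2 fold change was -0.07 (95% interval -0.24 to 0.09). *Mcl1* had 6.99, 7.18 and 7.32 log2 CPM in controls and 6.81, 7.14 and 7.32 in MSUS samples. Its log2 fold change was -0.04 (95% interval -0.21 to 0.12), and it turned to 0.01 without MSUS replicate 1.

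Neither effector passed the threshold in the limma fit used throughout. *Bax* had lowest, median and highest values of 3.58, 3.93 and 4.11 log2 CPM in controls and of 3.12, 3.54 and 4.01 in MSUS samples. 4 of 7 MSUS samples were below every control and 2 of 6 controls above every MSUS sample. The estimated counts of *Bax* were whole numbers in 4 of 13 samples, so some of its reads were shared with other features. The log2 fold change of -0.29 (SE 0.14) lay at the threshold, with an unadjusted p of 0.0527 by limma, 0.0480 by edgeR and 0.0508 by DESeq2, and with p = 0.0524 by the exact permutation test. The limma p of *Bax* was 0.0340 with sample weights, 0.0374 with library size alone, 0.0448 with the upper quartile and 0.0491 without a count filter. It was 0.0576 with DESeq2-type size factors, 0.0558 with a filter on CPM, 0.0541 with unnamed features kept and 0.0511 with the spermatid covariate. Leaving out one sample at a time moved the limma p of *Bax* between 0.0146, without MSUS replicate 11, and 0.130, without MSUS replicate 5. *Bak1*, whose product can replace Bax at the mitochondrion, had 3.53, 3.78 and 4.23 log2 CPM in controls and 3.59, 3.89 and 4.13 in MSUS samples. Its log2 fold change was 0.04 (95% interval -0.23 to 0.32), and -0.03 without control replicate 10.

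The sample with the lowest value of the row Bcl2l2, control replicate 24 (7.54 log2 CPM), had the highest *Bax* of all samples (4.11). The sample with the highest, MSUS replicate 5 (8.38), had the lowest *Bax* (3.12). These pairs of values were picked after they had been seen and come from opposite groups, and the relation was not tested. Other samples did not follow it: MSUS replicate 11 had 8.11 and a *Bax* of 4.01, and control replicate 12 had 7.71 and 3.63.

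Of the BH3-only members, *Bcl2l11* was higher in MSUS. Its lowest, median and highest values were 4.91, 4.96 and 5.29 log2 CPM in controls and 4.98, 5.21 and 5.56 in MSUS samples. All 7 MSUS samples were above the control median and 3 were above every control, yet the groups overlapped. The estimated counts of *Bcl2l11* were whole numbers in 1 of 13 samples, so some of its reads were shared with other features. The log2 fold change was 0.25 (SE 0.11), a 1.19-fold difference, with an unadjusted p of 0.0328 and an adjusted p of 0.878 by limma. The two-sided exact permutation test of its group means, with 1716 arrangements, gave p = 0.0589, so the gene passed by limma and not by this test. The limma call was lost without any 1 of 7 samples, namely control replicates 9, 12, 22 and 24 and MSUS replicates 5, 6 and 26, where p was 0.0541 to 0.0731.

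The remaining BH3-only members were not called. *Bad* had 4.22, 4.44 and 4.65 log2 CPM (lowest, median, highest) in controls and 3.89, 4.37 and 4.57 in MSUS samples. Its log2 fold change was -0.14 (exact permutation test p = 0.234, limma p = 0.238), and with the elongated spermatid score as a covariate it was -0.21 (limma p = 0.0447). *Bid* had 2.27, 2.97 and 3.20 log2 CPM in controls and 2.37, 2.93 and 3.30 in MSUS samples. *Bbc3* had 1.55, 1.84 and 2.06 in controls and spread wider in MSUS samples, with 1.02, 1.99 and 2.53. Their log2 fold changes, 0.04 and -0.02, changed sign under several settings.

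**Figure D3:**
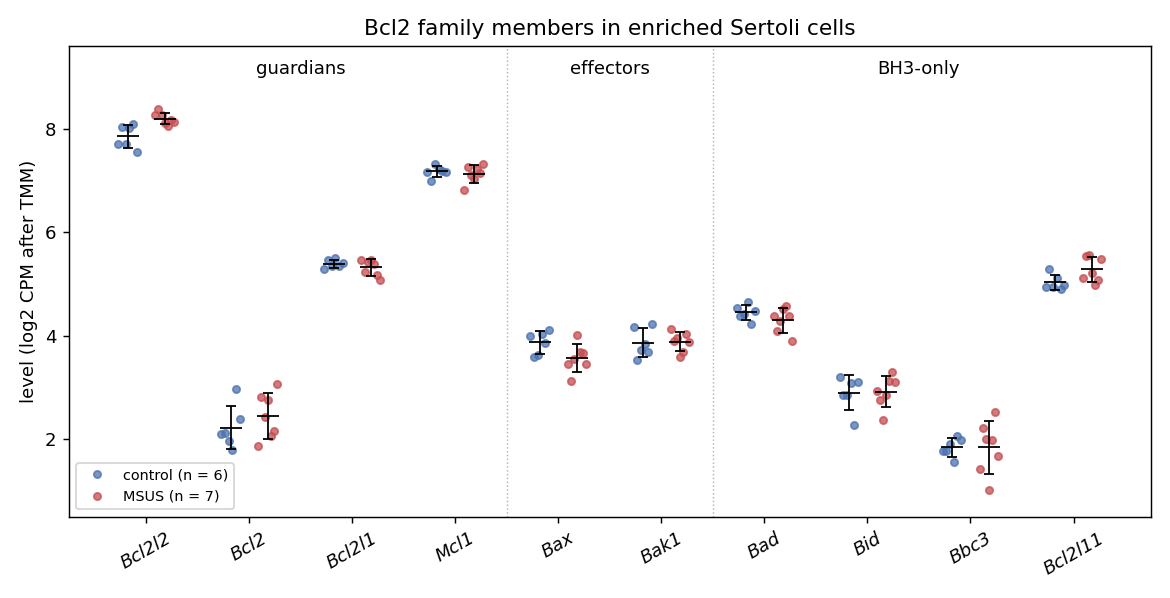
Level (log2 CPM, y axis) of the 10 members in 6 control (blue) and 7 MSUS (red) samples, grouped by role. Each point is 1 sample and black bars are the mean and SD. In every member the groups overlap, and the row Bcl2l2, *Bax* and *Bcl2l11* show the clearest shifts.

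**Figure D4:**
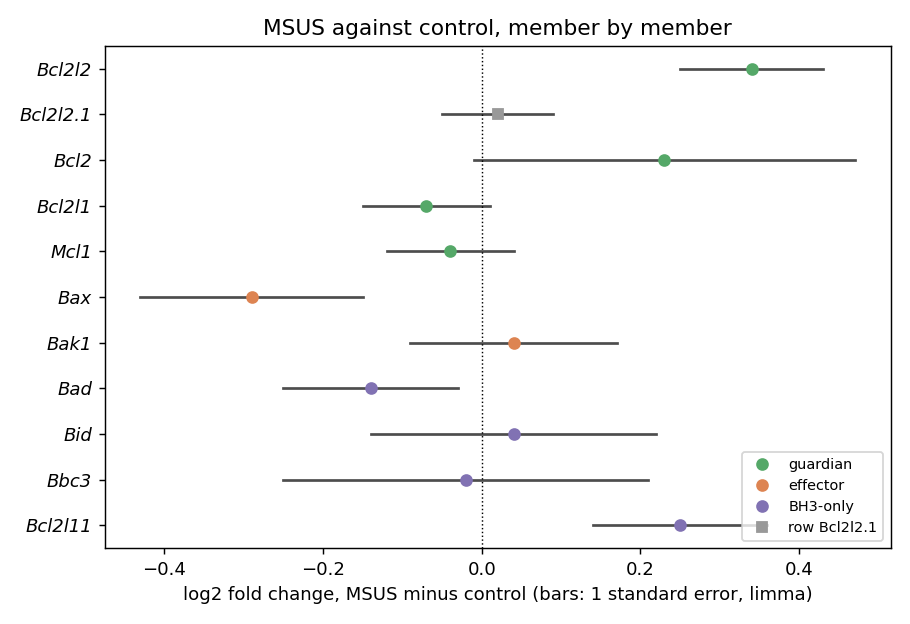
Log2 fold change of each member, MSUS minus control, with bars of 1 standard error (limma), coloured by role, and of the row Bcl2l2.1 (grey square). The row Bcl2l2, which was chosen by its p-value in this comparison, is at 0.34, *Bcl2l11* at 0.25 and *Bax* at -0.29, while the row Bcl2l2.1 is at 0.02.

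In no member did the groups separate fully in log2 CPM, which 0.132% of all genes tested did. How tightly a member was held within groups also differed. Against the tested genes within 0.5 log2 units of its own mean level, the within-group SD of *Bcl2l1* (0.13) was above that of 23.1% of 2295 genes. That of the row Bcl2l2 (0.17) was above that of 82.7% of 652 genes, and that of the row Bcl2l2.1 (0.13) above that of 53.3% of 1372. The wider spread of the row Bcl2l2 was that of the controls (SD 0.22, against 0.13 for the row Bcl2l2.1), while in MSUS samples its SD was 0.11, against 0.13.

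The survival balance, the mean log2 CPM of the 4 guardians minus that of the 6 pro-apoptotic members, was a little higher in MSUS samples, by less than the spread within groups. In controls its lowest value was 1.80, its median 1.96 and its highest 2.40. In MSUS samples these were 1.83, 2.18 and 2.33. The highest single balance was that of control replicate 22, so 0 of 7 MSUS samples were above every control. The means were 2.0 ± 0.23 (SD, n = 6) and 2.14 ± 0.19 (SD, n = 7), a difference of 0.14 beside a within-group SD of 0.21. No test was made, since the balance contains the gene by which the set was chosen.

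With the row Bcl2l2 counted as a guardian, the guardians averaged 5.66 ± 0.12 log2 CPM in controls and 5.77 ± 0.12 in MSUS samples. This mean contains the row that chose the set, so its difference is not a rise of the guardians as a side. The pro-apoptotic members averaged 3.66 ± 0.13 and 3.63 ± 0.1. Within the latter, the effectors averaged 3.86 ± 0.24 and 3.72 ± 0.12, and the BH3-only members 3.55 ± 0.1 and 3.58 ± 0.14. Without *Bcl2l2* the balance differed by 0.06, and with the row Bcl2l2.1 in its place also by 0.06. Set against *Bax* and *Bak1* alone it differed by 0.25, and against the BH3-only members alone by 0.08. On summed CPM per kb, where abundant members weigh most, it was 1.41 ± 0.22 in controls and 1.65 ± 0.15 in MSUS samples, with 2 of 7 MSUS samples above every control.

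**Figure D5:**
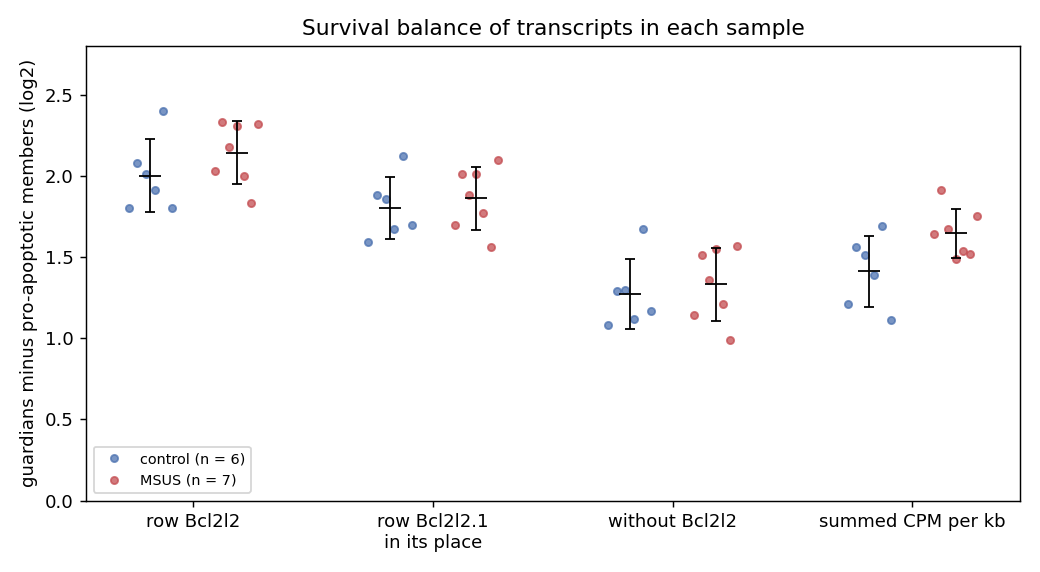
Survival balance in each of 6 control (blue) and 7 MSUS (red) samples, in log2 units, with the row Bcl2l2, with the row Bcl2l2.1 in its place, without *Bcl2l2*, and as the log2 ratio of summed CPM per kb. Points are samples and black bars the mean and SD. The groups overlap in all 4 versions, and the difference shrinks from 0.14 to 0.06 when the row Bcl2l2 is replaced or left out.

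The rest of the pathway was given by 51 further genes, of which 45 passed the count filter. Of these, 0 were called higher and 2 lower at an unadjusted p under 0.05, and 0 after adjustment (limma), beside 3.02% of all genes called higher and 2.40% called lower, so the count was near the background. Their median log2 fold change was -0.03, with 20 positive and 25 negative. *Bok*, an effector-like member that can act without Bax and Bak, had lowest, median and highest values of 4.75, 4.92 and 5.19 log2 CPM in controls and 4.46, 4.68 and 4.94 in MSUS samples, a log2 fold change of -0.25 (SE 0.1, limma p = 0.0247, exact permutation test p = 0.0332). *Vdac1*, a channel of the outer mitochondrial membrane, had 7.20, 7.38 and 7.49 in controls and 7.11, 7.20 and 7.38 in MSUS samples, a log2 fold change of -0.14 (SE 0.06, limma p = 0.0399, exact permutation test p = 0.0367). Both had an adjusted p of 0.878, and both calls were lost when MSUS replicate 5, control replicate 9 or control replicate 24 was left out. That of *Bok* was also lost without MSUS replicate 1 or 6, and that of *Vdac1* without control replicate 12 or MSUS replicate 11, 13, 23 or 26. The groups overlapped in both genes. Both were named for their limma p, and the permutation test used the same samples, so its p is not separate support.

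None of the 6 caspases was called. *Casp9*, the initiator activated on the apoptosome, had a log2 fold change of -0.03 (95% interval -0.24 to 0.18). *Casp8*, the initiator of the death receptor route, was at 0.12 (-0.17 to 0.41). Of the 9 apoptosome and released factors, 8 had negative changes, between -0.19 and -0.06, as did 7280 of all 14421 genes tested, and of these *Vdac1* was the one called, while *Htra2*, a mitochondrial protease, was at 0.27. None of the 12 upstream regulators, among them *Trp53* and *Foxo3*, and none of the 6 caspase inhibitors was called. The further guardians *Bcl2l10*, *Bcl2a1a*, *Bcl2a1b* and *Bcl2a1d* were near absent, with 1 to 11 counts over all samples together, and were not tested.

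Across the 13 samples, after removal of the group means, the genes whose level followed the row Bcl2l2 most closely were *Srsf10* (r = 0.91), *Srsf11* (0.90), *Firre*, *Fam193b* and *Zranb2* (0.89 each). They were searched among 9513 genes with a mean of at least 3 log2 CPM. These values describe 13 libraries that share depth and cell composition, and carry no test. *Srsf10*, *Srsf11* and *Zranb2* encode splicing factors, and *Firre* is a long non-coding RNA of the nucleus. The row Bcl2l2.1 had r = 0.00 with the row Bcl2l2.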

How the data were processed

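Sertoli cells of 6 control and 7 MSUS males were sequenced from total RNA (SMARTer Stranded Pico kit, single-end reads). The authors trimmed reads with Trim Galore 0.6.5, assigned them with Salmon 1.1.0 to GENCODE vM23 transcripts and deposited estimated counts per gene, not normalized. How transcripts were summed and named, and the strand setting, are not given in the sources used here. Of 54281 features, 27170 had no gene name and held 20.7% to 26.7% of the counts. These entered neither the library sizes nor the tests. All columns matched a sample (0 unmatched).

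TMM scaling and limma voom follow the study's methods (here limma 3.58.1, edgeR 4.0.16, R 4.3.3). Rounding of the estimated counts, the filterByExpr filter and Benjamini-Hochberg adjustment over all genes were added here. edgeR's quasi-likelihood test, DESeq2 1.42.0, other scalings and filters, sample weights, a spermatid covariate and leaving out each sample were alternatives. Exact permutation tests of single genes, on log2 CPM and two-sided, were added after the data were seen. Fits were tested on simulated data. Replicate numbers are animal numbers. Total counts per sample are given with the results, and counting error was not separated from the spread between mice. The members and lists were chosen with earlier results of these data known. Named genes were all members, wider-list genes with an unadjusted p under 0.05, *Casp8*, *Casp9* and other genes not reported here, genes overlapping *Bcl2l2*, and the 5 nearest by correlation. A few further genes were named after their values were seen. *Bcl2*, *Bax* and *Bcl2l11* also had non-whole estimates, so their reads were shared with other features. Gene positions, lengths and sequences are from GENCODE vM21 (GRCm38).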

Additional observations from a re-analysis of the deposited data

How the results depend on the processing

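No paired analysis was possible because the replicate numbers are those of single animals and no number occurs in both groups. After adjustment 0 genes were called under every setting run. The number of members with an unadjusted p under 0.05, which is 2 with *Bcl2l2* counted, a gene chosen by that p, was 1 with the row Bcl2l2.1 in place of *Bcl2l2* (a choice made after seeing the data) and ranged from 1 to 3 when each sample was left out. In the wider lists 2 genes were called, but 4 with sample quality weights and 6 with the elongated spermatid score as a covariate, and 0 to 4 when each sample was left out. Over all genes the calls rose as well, from 781 to 1045 with the weights and 1204 with the covariate. When each sample was left out they ranged from 534, without MSUS replicate 5, to 1121, without control replicate 10. The cause was not tested.

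*Bcl2l2* (0.28 to 0.39), *Bax* (-0.37 to -0.22), *Bcl2l11* (0.21 to 0.31), *Bcl2* (0.12 to 0.40), *Bcl2l1* (-0.13 to -0.02) and *Bad* (-0.21 to -0.06) kept the sign of their log2 fold change in all fits with the row Bcl2l2. *Bbc3* turned positive with edgeR's quasi-likelihood test and DESeq2 (0.06 each), sample weights (0.09) and the covariate (0.03), and ranged from -0.13 to 0.11 when each sample was left out. *Bid* was -0.01 with sample weights and -0.10 to 0.14 when each sample was left out. *Mcl1* ranged from -0.08 to 0.01 and *Bak1* from -0.03 to 0.11 in the same way. The balance differed by 0.10 to 0.22 when each sample was left out. Of the 9 steps in the order of levels, 6 passed within controls, 6 within MSUS samples and 8 to 9 when each sample was left out. Without length correction or with the exon length the order itself, and so the pairs of neighbours, changed, and 7 of 9 pairs passed in each.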

Other observations

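The search for single samples far from their group (Dixon's criterion, groups of 6 and 7) covered 24 groups of values, namely the 10 members, the row Bcl2l2.1 and the balance in controls and in MSUS samples. It found 0, where chance alone gives about 1.2.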
